A study of Solanum lycopersicum with 2 samples.

Results

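The regulators of the leaf hairs and epidermis of tomato (Solanum lycopersicum) examined here were 10 genes, measured in leaf RNA of plants that overexpressed or silenced the B-type cyclin gene SlCycB2. The 10 genes, of 34725 gene models in the deposited table, were chosen by identifier for the role or family ascribed to them. They comprise 5 homeodomain-leucine zipper class IV (HD-ZIP IV) factors and 5 other regulators. The HD-ZIP IV genes are Woolly (Solyc02g080260), CD2 (Solyc01g091630), Solyc03g120620, Solyc10g005330 and Solyc03g031760. The other regulators are Hair (Solyc10g078970), MX1 (Solyc01g010910), MYC1 (Solyc08g005050), EOT1 (Solyc02g062400) and the SRA1 gene of the hairless mutant (Solyc11g013280). By their identifiers the 10 genes lie on 6 chromosomes. The table does not pair identifiers with names or families. The family of the HD-ZIP IV genes without a name was therefore not checked against an annotation. Of these names, only CD2, MYC1 and EOT1 occurred in the RefSeq gene table used here (assembly SLM_r2.1), and these 3 lay there on the chromosome that the identifier carries.

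The 2 libraries were from SlCycB2-OE plants, in which the cyclin gene is overexpressed, and SlCycB2 RNAi plants, in which it is meant to be silenced. Both were made from young primary leaf of mature plants of the cultivar Ailsa Craig, with 1 library per group. The labels do not name the promoter of either construct or the number of lines or plants behind each library. No wild-type leaf entered the comparison, so a difference between the 2 libraries cannot be assigned to either manipulation. With no replicates there was no spread against which a difference could be tested, and no p-value was computed.

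Tomato leaves carry several kinds of multicellular hairs, or trichomes, some of which end in glands that make terpenes and sugar esters. HD-ZIP IV proteins combine a homeodomain, a leucine zipper and a lipid-binding-like START domain, and act mainly in the epidermis, where they set cell identity, cuticle and hair formation. Woolly is required for the formation of a class of long hairs and is known to bind both the zinc-finger protein Hair and a B-type cyclin. The remaining regulators act beside them on hair number, gland chemistry or the actin skeleton that shapes the growing hair.

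Levels are given in RPKM, read numbers that the authors normalised to the length of the gene model and to the mapped reads of the library. Differences are log2((RPKM + 1) / (RPKM + 1)), overexpression over RNAi, and were compared among the 19466 genes with a mean of at least 1 RPKM. Differences of low genes are understated on this scale. Genes were called apart at 2-fold or more on it. The median difference over all 19466 genes was 0.13 rather than 0, and 67.8% of them were higher in the overexpression library by any amount. The direction of a small difference therefore depends on scaling.

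Transcripts of all 5 HD-ZIP IV genes were detected in both libraries. All 5 were higher in the overexpression library, as deposited and under each scaling tried. As deposited, 67.8% of all genes compared were higher there too, so the shared direction alone does not set the family apart. The sum of their levels was 98.8 RPKM in the overexpression library and 62.1 RPKM in the RNAi library, a ratio of 1.59. Of the gap of 36.7 RPKM, 13.5 RPKM came from Solyc10g005330 and 12.9 RPKM from Solyc03g031760. The other 3 genes, Woolly included, were higher by nearly the same small factor. Of the 7 members that could be compared, 1 was at least 2-fold higher, against a background of 2.6% of all genes compared, and 0 were at least 2-fold lower, against 1.92%. In both directions together the background was 4.52%. At a limit of 1.5-fold, 2 of the 7 were higher, against 9.37% of all genes, and 0 were lower, against 4.59%. Both were HD-ZIP IV genes.

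**Figure D1:**
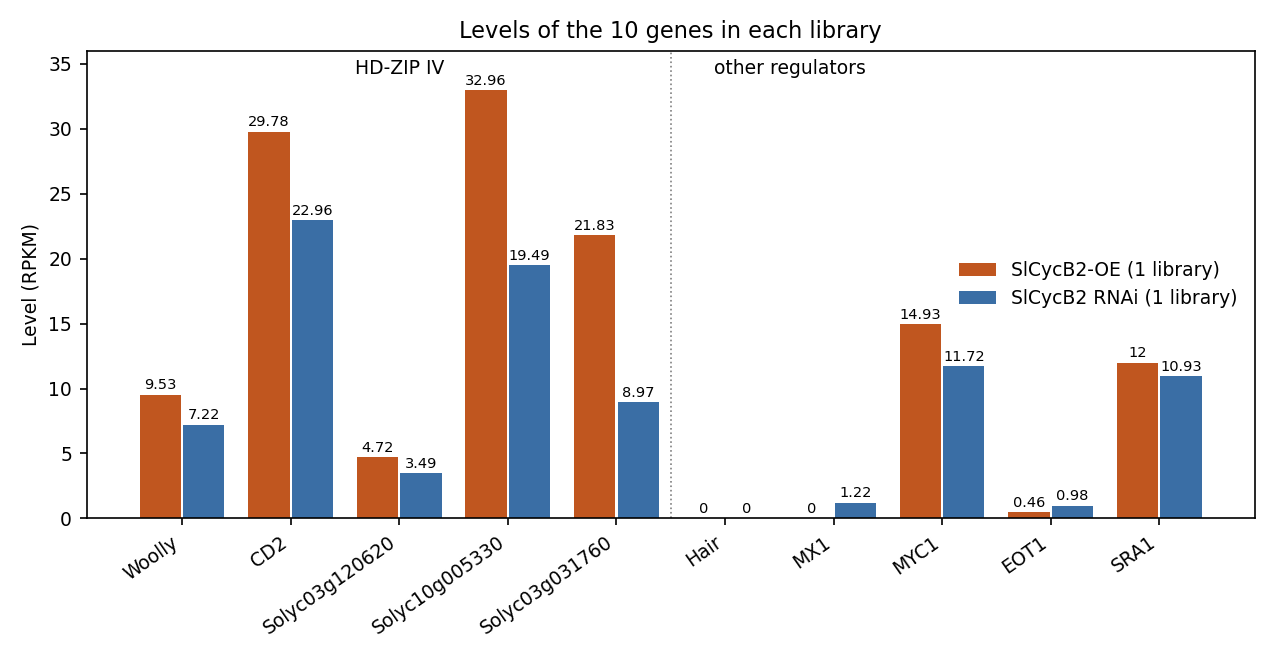
Levels (RPKM) of the 10 genes, with 1 bar per library: overexpression left, RNAi right, HD-ZIP IV genes left of the dotted line. Solyc10g005330 has the widest gap in RPKM, at 32.96 in the overexpression and 19.49 in the RNAi library, and Solyc03g031760 the largest ratio, at 2.43, while Hair is at 0 in both libraries and MX1 and EOT1 lie near the floor.

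Solyc03g031760, an HD-ZIP IV gene on chromosome 3, had the largest log2 difference of the 7 members compared. It was at 21.83 RPKM in the overexpression library and 8.97 RPKM in the RNAi library. The ratio was 2.43 and the log2 difference 1.20. Of all genes compared, 98.3% had a lower log2 difference. It was the 3rd most abundant of the 10 genes in the overexpression library and the 5th in the RNAi library. The compared genes were also split into 10 equal bins by mean level. In the bin of Solyc03g031760, at 12.9 to 18.4 RPKM, the log2 difference had an SD of 0.41, and 1.39% of genes were at least 2-fold higher. That SD is taken across genes and does not measure the spread between plants. The 2-fold call was lost with a pseudocount of 5, where the log2 difference was 0.94.

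Solyc10g005330, an HD-ZIP IV gene on chromosome 10, was at 32.96 RPKM in the overexpression library and 19.49 RPKM in the RNAi library. The ratio was 1.69 and the log2 difference 0.73, above that of 94.2% of compared genes. In the overexpression library it was the most abundant of the 10 genes, and in the RNAi library it came after CD2. In its level bin, 18.4 to 28.4 RPKM, the central 80% of log2 differences lay between -0.21 and 0.48, and Solyc10g005330 lay above that range.

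CD2 is the HD-ZIP IV gene named for the cutin-deficient fruit of its mutant, cutin being the polyester of the plant cuticle. It was at 29.78 RPKM in the overexpression library and 22.96 RPKM in the RNAi library, a log2 difference of 0.36. Woolly, the regulator of long hairs, was at 9.53 RPKM in the overexpression library and 7.22 RPKM in the RNAi library, also a log2 difference of 0.36. The least abundant of the family members examined, Solyc03g120620, was at 4.72 RPKM in the overexpression library and 3.49 RPKM in the RNAi library, a log2 difference of 0.35. These 3 genes stood within 2-fold, and each lay within the central 80% of differences among genes of its own level. Their differences exceeded the median of all genes by 0.21 to 0.23 on the log2 scale.

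Proportions among the HD-ZIP IV transcripts restate the values above within each library. They divide the genes in the same way by construction and add no separate result. Woolly stood at 0.32 of the level of CD2 in the overexpression library and at 0.31 in the RNAi library. Solyc03g120620 stood at 0.50 of the level of Woolly in the overexpression library and at 0.48 in the RNAi library. The balance of these 3 genes was thus close in the 2 libraries, while the other two differed from it. Solyc03g031760 was at 2.29 times the level of Woolly in the overexpression library and 1.24 times in the RNAi library. Solyc10g005330 was at 1.11 times the level of CD2 in the overexpression library and 0.85 times in the RNAi library, so the order of these most abundant family members differed between the libraries. Of the summed RPKM of the 5 genes, Solyc03g031760 took 22.1% in the overexpression library and 14.4% in the RNAi library. CD2 took 30.1% in the overexpression library and 37.0% in the RNAi library, and Woolly took 9.64% in the overexpression library and 11.6% in the RNAi library. Both had the higher RPKM in the overexpression library, so their smaller shares there follow from the larger ratios of Solyc10g005330 and Solyc03g031760. Solyc10g005330 took 33.4% in the overexpression library and 31.4% in the RNAi library. A ratio between genes within a library is not altered by rescaling that library, but the counting error of these ratios is unknown.

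**Figure D2:**
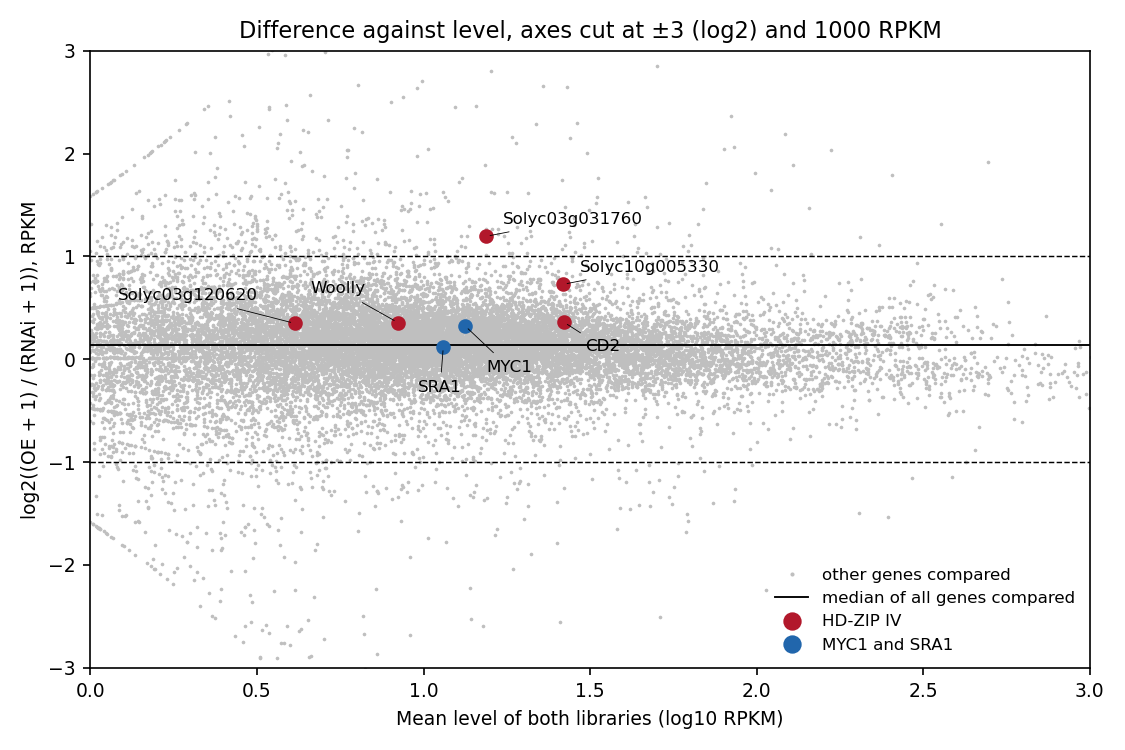
Log2 difference, overexpression over RNAi with a pseudocount of 1 RPKM, against the mean level of both libraries (log10 RPKM); grey points are the other genes compared, coloured points the 7 members with a mean of at least 1 RPKM, dashed lines the 2-fold limits and the solid line the median of all genes, 0.13. Solyc03g031760 lies above the upper limit at 1.20 and Solyc10g005330 below it at 0.73, while the other 5 lie between 0.12 and 0.36.

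MYC1, a bHLH factor known to be needed for glandular hairs of the type that store terpenes, was detected in both libraries. It was at 14.93 RPKM in the overexpression library and 11.72 RPKM in the RNAi library, a log2 difference of 0.32, and 74.0% of compared genes had a lower difference. Its level relative to Woolly was 1.57 in the overexpression library and 1.62 in the RNAi library. MYC1 thus lay beside Woolly, CD2 and Solyc03g120620 in the size of its difference.

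SRA1 encodes a subunit of the SCAR/WAVE complex, which promotes branched actin, and its loss gives the hairless mutant its short, distorted hairs. It was at 12.0 RPKM in the overexpression library and 10.93 RPKM in the RNAi library, the smallest difference among the members compared. Its log2 difference was 0.12 as deposited, and it turned to -0.011 after centring on the median of all genes and to -0.016 when scaled by the trimmed mean. Relative to Woolly it was at 1.26 in the overexpression library and 1.51 in the RNAi library. SRA1 was the only member with a mean of at least 1 RPKM whose direction depended on scaling.

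Hair, MX1 and EOT1 were at or near the floor and were not compared with the other genes, as their mean was under 1 RPKM. Hair, a zinc-finger gene known to act with Woolly in the formation of long hairs, was listed at 0 RPKM in both libraries, as were 27.9% of all gene models. MX1, a MYB gene related to MIXTA that acts on hair density and cuticle, was listed at 0 RPKM in the overexpression library and at 1.22 RPKM in the RNAi library. Of the 1202 gene models at 1 to 1.5 RPKM in the RNAi library, 69, or 5.74%, were likewise listed at 0 in the overexpression library. EOT1, a factor of the SHI family expressed in glandular hairs and known to activate a terpene synthase promoter, was at 0.46 RPKM in the overexpression library and 0.98 RPKM in the RNAi library, a ratio of 0.47. Among the 1591 gene models at 0.7 to 1.3 RPKM in the RNAi library, 18.0% had a ratio at or below that of EOT1. By the filter, these 3 genes were set apart from the other 7 through their low level. None had the higher value in the overexpression library, but Hair was at 0 in both and MX1 and EOT1 were near the floor. No shared direction can be read from such values. Read totals were not given, so it is not known how many reads these low values represent, and a value of 0 does not show that a gene was silent.

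In the overexpression library the order of levels ran from Solyc10g005330 through CD2, Solyc03g031760, MYC1, SRA1, Woolly and Solyc03g120620 to EOT1, with MX1 and Hair at 0. In the RNAi library it ran from CD2 through Solyc10g005330, MYC1, SRA1, Solyc03g031760, Woolly, Solyc03g120620, MX1 and EOT1 to Hair at 0. CD2 exceeded the level of 83.7% of detected genes in the overexpression library and 81.0% in the RNAi library. Woolly exceeded 58.0% of detected genes in the overexpression library and 53.9% in the RNAi library. SRA1 exceeded 64.1% in the overexpression library and 64.4% in the RNAi library, so its place among detected genes was nearly the same. Solyc03g031760 exceeded 78.3% of detected genes in the overexpression library and 59.5% in the RNAi library, the widest gap in place among the 7 members compared. Without replicates it cannot be said which neighbours in these orders differ beyond the spread between plants.

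The position of each compared member among its neighbours was described with the 10 compared identifiers on each side of it. The 20 neighbours of Solyc03g031760 had a median log2 difference of 0.21 and a range of -0.77 to 0.54, so none was as high as the gene itself. The neighbours of Solyc10g005330 had a median of 0.12, and 1 of the 20 had a larger difference than the gene. That neighbour, Solyc10g005480, was at 2.71 RPKM in the overexpression library and 0.72 RPKM in the RNAi library, a log2 difference of 1.11. Of all genes compared, 98.3% had a lower difference than Solyc03g031760 and 94.2% a lower one than Solyc10g005330. Few larger values were therefore likely among any 20 genes, so the neighbours add little to these ranks. For Woolly, 8 of 20 neighbours had a larger difference and the median was 0.25, with 2 neighbours at least 2-fold higher. For Solyc03g120620, 8 of 20 had a larger difference and the median was 0.26. The differences of Woolly and Solyc03g120620 were thus within those of the genes around them.

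CD2 had 4 of 20 neighbours with a larger difference and a neighbour median of 0.03. Of these 20 neighbours, 7 had a log2 difference below 0, and 2 of the 7 passed the 2-fold limit. Solyc01g091660 was at 0.41 RPKM in the overexpression library and 4.88 RPKM in the RNAi library, a log2 difference of -2.06. Solyc01g091670 was at 0.14 RPKM in the overexpression library and 2.98 RPKM in the RNAi library, a log2 difference of -1.80. These genes, singled out after their values were seen, carry no name in the table. MYC1, close to the start of the chromosome 8 identifiers, had 14 compared neighbours within the range used, with a median of 0.30, and 5 of them had a larger difference. SRA1 had a neighbour median of 0.20, and 11 of 20 had a larger difference.

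**Figure D3:**
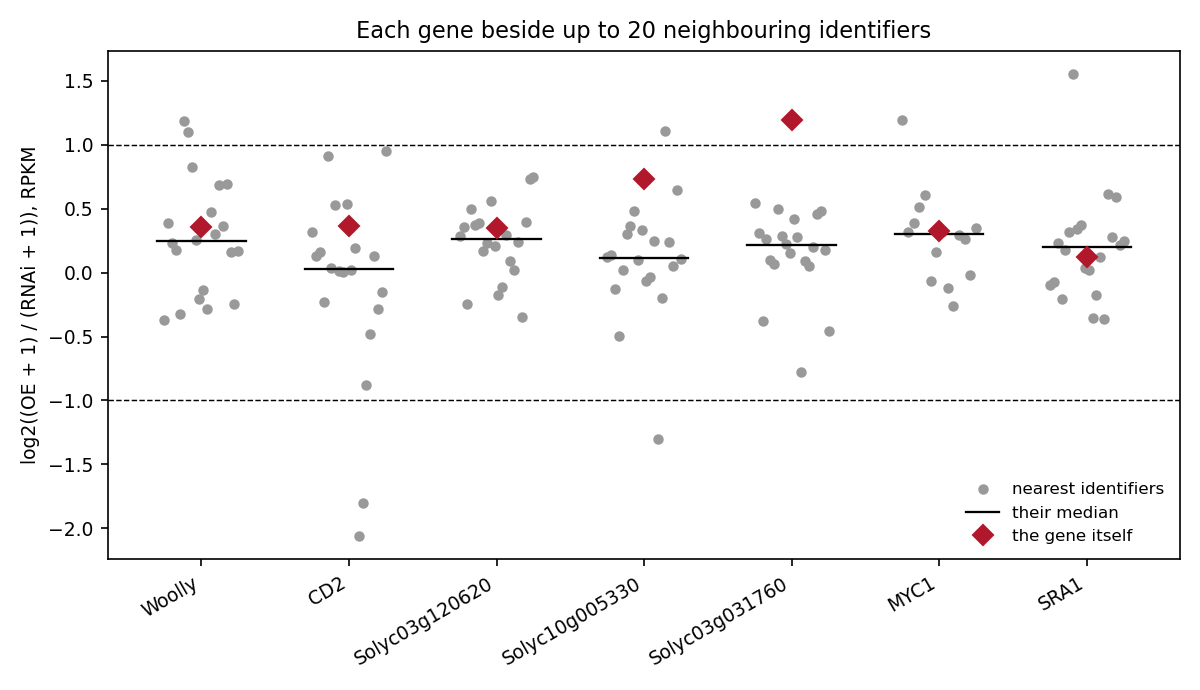
Log2 difference, overexpression over RNAi, of each of the 7 compared members (diamonds) and of the nearest compared identifiers on the same chromosome (grey points, up to 10 on each side, in identifier order from left to right), with their median (bar) and the 2-fold limits (dashed). Solyc03g031760 at 1.20 lies above all 20 of its neighbours, as it does above 98.3% of all genes compared. Woolly, Solyc03g120620, MYC1 and SRA1 lie among theirs.

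Other identifiers of the trichome pathway were listed from what is generally known of tomato, and their link to the functions named was not checked against an annotation. Among all genes compared, 4.52% were at least 2-fold apart in either direction. Of 7 identifiers listed as partners in jasmonate signalling, in auxin response and as a further MYB gene, 0 were at least 2-fold apart. Their log2 differences ran from -0.14 to 0.61 with a median of 0.14, beside 0.36 for the 7 members and 0.13 for all genes. In the overexpression library their levels ran from 3.97 to 31.7 RPKM, and in the RNAi library from 3.50 to 22.0 RPKM, much as for the HD-ZIP IV genes.

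Enzymes that glandular hairs use were listed in the same way. Earlier results of these data were known when the lists were chosen, so the counts below describe the lists and test nothing. Of 4 terpene synthase identifiers in the table, 3 stood lower by 2-fold or more in the overexpression library, against 1.92% of all genes, and 1 stood higher by as much, against 2.6%. Their summed level was 8.07 RPKM in the overexpression library and 40.4 RPKM in the RNAi library. The 4 identifiers listed as BAHD acyltransferases of sugar ester synthesis summed to 0.32 RPKM in the overexpression library and 8.55 RPKM in the RNAi library. Of these, Solyc11g067270 alone reached a mean of 1 RPKM, at 0.32 RPKM in the overexpression library and 5.77 RPKM in the RNAi library, and the other 3 were at the floor and not compared. Over the same 2 libraries the sum of the 10 regulators was 126.2 RPKM in the overexpression library and 87.0 RPKM in the RNAi library. Of that gap of 39.2 RPKM, 13.5 RPKM came from Solyc10g005330 and 12.9 RPKM from Solyc03g031760. The 5 regulators outside HD-ZIP IV summed to 27.39 RPKM in the overexpression library and 24.85 RPKM in the RNAi library. The sum of all 10 therefore does not describe the regulators as a set. Among the regulators, MX1 and EOT1 also had the lower value in the overexpression library, but both were near the floor and not compared. Values this low cannot bear on a link between them and the enzymes, which was not tested. In whole leaf, fewer cells of a type and less RNA per cell cannot be told apart, and the part of hair number in these values was not tested.

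The libraries were close in RPKM sum and in the number of gene models detected. The sum is partly set by the normalisation to mapped reads, so its closeness does not show that the libraries were alike. The RPKM sum was 939089 in the overexpression library and 945985 in the RNAi library, and 23901 gene models were detected in the overexpression library and 23804 in the RNAi library. All 6 identifiers listed as leaf mesophyll markers were abundant, with sums of 57358 RPKM in the overexpression library and 67862 RPKM in the RNAi library. Of 3 ripe fruit and pollen identifiers, 2 were listed at 0 in both libraries and the third was at 1.89 RPKM in the overexpression library and 0.87 RPKM in the RNAi library. The manipulated gene could not be checked by name. Solyc10g083140, the identifier listed as the target, was at 4816 RPKM in the overexpression library and 12.3 RPKM in the RNAi library, the largest difference of any gene compared. It carries a chromosome 10 identifier, whereas the RefSeq gene with the symbol CycB2 lies on chromosome 2, so that its identity as SlCycB2 is not settled here.

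**Figure D4:**
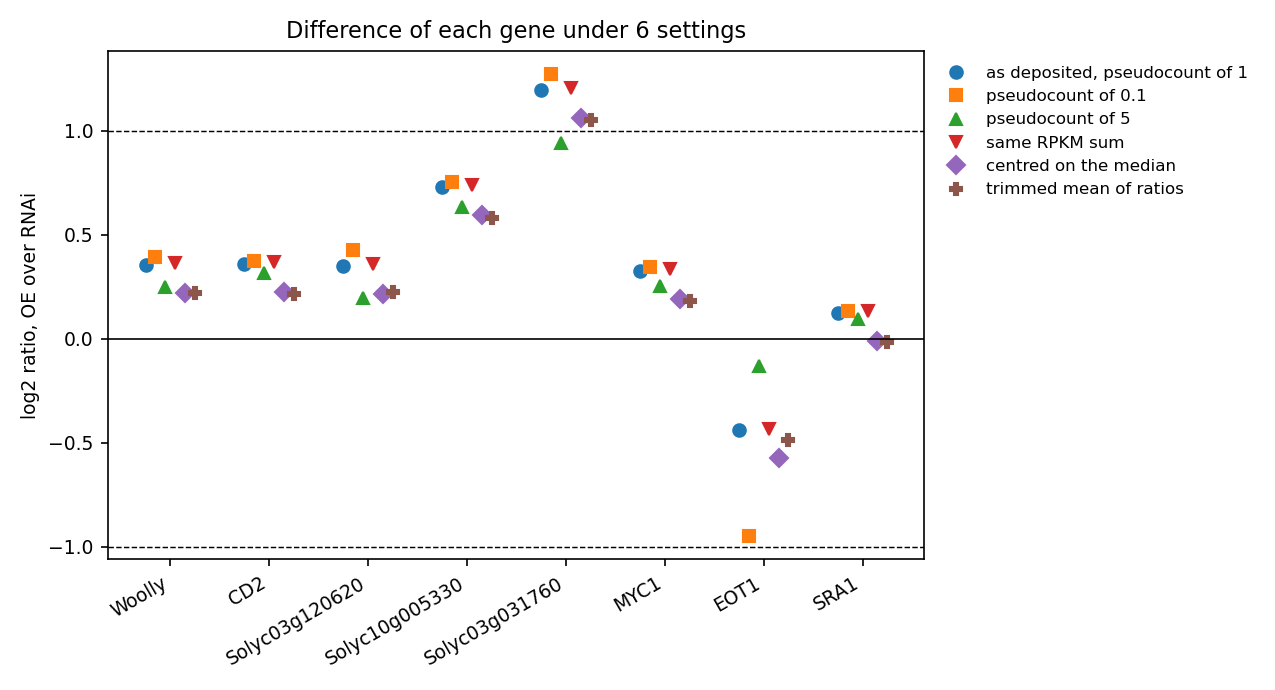
Log2 ratio, overexpression over RNAi, of the 8 members above 0 RPKM in both libraries under 6 settings of pseudocount and scaling (symbols), with the 2-fold limits dashed. The 5 HD-ZIP IV genes and MYC1 stay above 0 and EOT1 below it at every setting shown, while SRA1 runs from -0.016 to 0.13 and Solyc03g031760 from 0.94 to 1.27.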

How the data were processed

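RNA sequencing values from 2 leaf libraries were used, 1 of SlCycB2-OE and 1 of SlCycB2 RNAi plants. The deposited values are RPKM for 34725 gene models, calculated by the authors per the file headers and rounded to 2 decimals. The submitters' processing notes name TopHat, a spliced aligner. Its version, the genome build, the annotation and the counting, including strand and reads with several matches, are not stated there. Read totals are unknown. Among 2589 genes at 0.3 RPKM or more in each library and averaging no more than 1.5 RPKM, 28.0% had ratios within 0.01 (natural log) of a fraction of whole numbers up to 3 when 1 read was worth 1.02 times as much RPKM in the overexpression library, against a median of 3.75% over scanned values of 0.5 to 2, so depths appeared close.

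From these values, log2 ratios with a pseudocount of 1 were computed over the 19466 genes with a mean of at least 1 RPKM, with a 2-fold limit and no test. Members were matched by the identifier before the first dot. All 10 were named, whatever their values. Members, lists and settings were chosen with earlier results of these data known. The 9 alternatives were pseudocounts of 0.1 and 5, equal RPKM sums, subtracting the median log2 ratio, a trimmed mean as scaling factor (trimming 30% of ratios and 5% of levels from either end), no filter, a mean of at least 5 RPKM, and limits of 4-fold and 1.5-fold. The procedure was checked on simulated counts, with 4-fold changes in genes averaging at least 5 RPKM, an assumed depth and no plant-to-plant spread. That check did not cover smaller differences or changes in lower genes. The RefSeq table of 41476 genes, which served only for names, held 0 of the identifiers. Python 3.11.15, numpy 2.4.6, pandas 2.3.3 and matplotlib 3.10.9 were used.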

Additional observations from a re-analysis of the deposited data

How the results depend on the processing

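The values rest on 1 library per group and unknown depth, so counting error, plant-to-plant spread and the effect of either construct could not be separated, and no replicate could be left out. No paired analysis was possible because each side of the comparison has a single library. The members at least 2-fold higher numbered 1 as reported, 0 with a pseudocount of 5, 0 at the 4-fold limit and 2 at the 1.5-fold limit. The members at least 2-fold lower numbered 0 as reported and 1 with no filter on low values, where 481 of all 34725 gene models were as low. That 1 was MX1, listed at 0 in the overexpression library and counted through the pseudocount. The median log2 difference of the members was 0.36, falling to 0.22 both after centring on the median of all genes and after the trimmed mean of ratios. That of the HD-ZIP IV genes was 0.36, with 0.23 after centring, 0.22 after the trimmed mean, and 0.55 at a mean of at least 5 RPKM, where Solyc03g120620 drops out. Over the 19466 genes compared, 506 (2.6%) were higher and 373 (1.92%) lower as reported. Of the same 19466 genes, 901 were higher and 573 lower with a pseudocount of 0.1, and 141 and 128 with 5. At the 4-fold limit 96 and 99 of them passed, and at 1.5-fold 1823 (9.37%) and 893 (4.59%). At a mean of at least 5 RPKM, with fewer genes compared, 222 were higher and 155 lower. With no filter, 614 of the 34725 gene models were at least 2-fold higher. The higher side held 57.6% of the genes at least 2-fold apart in the deposited values, 43.4% once centred and 46.0% after the trimmed mean. Of 35 values for the 7 members compared, under the pseudocounts and scalings, 0 moved by more than the SD among genes of their level. For the scalings this could not have come out otherwise. A scaling shifted a log2 difference by no more than about 0.15, and the smallest of these SDs was 0.41. The count is therefore no sign of robustness, and SRA1 changed direction within it. EOT1, under the filter and so without such an SD, had a log2 difference of -0.44 as reported, -0.95 at a pseudocount of 0.1 and -0.13 at 5. MX1 and Hair, at 0 in at least 1 library, were left out of these values.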
